A study of Mus musculus with 6 samples.

Results

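The MYC, MAX and MXD network was described in Lewis cells, a mouse lung carcinoma line, from RNA-seq of 3 samples kept with SD70, an inhibitor of the histone demethylase KDM4C, and 3 samples kept with its vehicle, DMSO, for 24 hours in both groups. The members were chosen by name as the genes of the network, and not by their values, though earlier results of these data were known. They were Myc, Mycn and Mycl of the MYC family, the shared partner Max, the repressors Mxd1, Mxi1, Mxd3, Mxd4 and Mnt, and the dual factor Mga. Of these 10 genes, 9 were among the 16081 genes listed, and 8 were among the 11552 that passed the filter on low counts and were tested. Expression of Mycn was not analysed here, and Mycl was listed but fell below the filter. The sources used here give no dose of SD70 for the RNA-seq, and no clone or genotype of the cells. The study states for its experiments in general that they were independently repeated, but neither the labels nor the RNA-seq methods say that these samples came from separate cultures, so p-values measure the spread between these samples, which may be technical.

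MYC is a transcription factor that binds DNA only when paired with MAX, and the pair recognises a short palindrome called the E-box, recruits histone acetyltransferases and raises genes for ribosomes, metabolism and growth. The MXD proteins and MNT compete for the same partner and the same E-boxes, but bring in the SIN3 corepressor with its histone deacetylases, so that transcription is lowered. MYC is amplified or highly expressed in many carcinomas, those of the lung included, while MXD genes are classically expressed as cells leave the cycle and differentiate. A parallel branch is built around MLX, a relative of MAX that pairs with the glucose-sensing factors MLXIP (MondoA) and MLXIPL (ChREBP) and with some of the MXD proteins.

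Library totals lay between 15276744 and 17060424 counts. The text gives FPKM, a level per length of transcript and per library size, where levels are set side by side, and normalized counts, which are scaled to the mean effective library size, where samples are compared for 1 gene. A gene is said to have risen or fallen where its adjusted p-value from edgeR's quasi-likelihood test was under 0.01. Of the cell type markers, the epithelial genes Epcam and Cdh1 and the alveolar gene Sftpc had at most 1 count in any sample. The alveolar gene Ager had at most 10, and Ptprc of immune cells had at most 2. Epcam, Cdh1 and Sftpc were thus at or near 0 in these cells, which the labels call lung adenocarcinoma cells. Krt8, a keratin of simple epithelia, was present and fell, with a log2 fold change of -0.55 (SE 0.0518, edgeR adjusted p = 3.28e-11). Krt18, a further keratin with fewer counts, fell by more (-1.22, SE 0.176, edgeR adjusted p = 2.97e-07). The summed normalized counts of the 5 listed of 6 epithelial markers ranged from 3916 to 4106 with DMSO and from 2573 to 2896 with SD70, and the part of this in the changes of the network was not tested. Those of the 5 fibroblast markers ranged from 2767 to 2869 with DMSO and from 1754 to 1903 with SD70, with the defining collagen gene Col1a1 at 6 counts or fewer. Most of that sum was Pdgfra, which fell from 1753 to 877 normalized counts (edgeR adjusted p = 9.33e-17), and Dcn, which fell from 1017 to 893 (adjusted p = 0.00719). Lum, with few counts, lay higher in every SD70 sample (log2 fold change 0.46, edgeR adjusted p = 0.0827, not past the threshold). The part of these genes was likewise not tested. Immune cell markers, 6 of 8 listed, summed to between 261 and 271 normalized counts with DMSO and between 187 and 220 with SD70, most of it Cd68, which fell (log2 fold change -0.48, edgeR adjusted p = 0.000121), while Lyz2 lay higher in every SD70 sample (0.79, adjusted p = 0.0256, not past the threshold), and their part was not tested either. The sum of the 5 mesenchymal markers ranged from 75861 to 85325 with DMSO and from 58862 to 63114 with SD70. Their 4 tested members moved both ways, with Vim (-0.47) and Fn1 (-0.23) falling, Zeb1 (0.63) and Zeb2 (0.59) rising, and Cdh2 at 1 count or fewer, and the part of these was not tested. The samples were of a cultured line, so a marker sum here need not stand for cells of that type. In bulk RNA, fewer cells that express a gene and less of its RNA per cell cannot be told apart.

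The E-box that the network recognises, CACGTG, reads the same on both strands. It was looked for, after the data had been seen, in RefSeq promoter windows of GRCm38.p6 that run from 250 bases before to 50 bases after a start site. It was found in the windows of 3 members, which are shown because this is the word that the proteins of the network recognise. Each line runs 5′ to 3′ on the strand of the gene, with the E-box in capitals.
Max, chr12:76962234-76962263, minus strand: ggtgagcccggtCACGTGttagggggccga
Mnt, chr11:74830789-74830818, plus strand: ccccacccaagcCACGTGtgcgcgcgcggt
Mxd4, chr5:34187912-34187941, minus strand: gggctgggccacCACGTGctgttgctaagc
The E-box of Max began 3 bases before the start site of the window and ran across it, that of Mnt began 123 bases before it, and that of Mxd4 began 219 bases before it. The start sites of the windows are not always the outer ends of the genes as given below. The E-box of Mnt ended at base 74830806, the first base of its locus, and the window of Mga began at base 119896978, inside its locus. No CACGTG stood in the windows of Mga, Mycl, Mycn, Mxd1 or Mxd3, nor in the 3 windows of Mxi1, which says only that these letters are not in these windows. The table of windows used had no entry for Myc. Across all 32851 mouse windows, 7.15% held the word. Counted by gene, the share was 11.9% among the tested genes with a window. A match is a description of the sequence, not a measured binding site.

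With SD70, the levels of Myc and of the 4 MXD genes moved apart. The repressor Mnt rose slightly, with a call that was lost in 9 of 14 alternative fits. Myc rose 2.36-fold, all 4 members named MXD or MXI fell by between 1.75-fold and 3.9-fold, and Max, the partner for which they compete, differed by a log2 value of 0.12 that did not pass the test. Of the 8 members tested, 6 changed, 2 upward (Myc and Mnt) and 4 downward. Among all genes tested, 49.9% changed, 25.8% rising and 24.2% falling, so that changes as such were common in this comparison. At least 2-fold changes were less common over all genes, with 3.29% rising and 2.61% falling that far. Among the members, 1 of 8 (Myc) rose and 3 of 8 (Mxd1, Mxd3 and Mxd4) fell by at least 2-fold. The 3 SD70 samples lay entirely above or below the 3 DMSO samples in 7 of the 8 tested members, and in 64.4% of all genes tested. The median log2 fold change was -0.36 over the tested members and -0.00 over all genes tested.

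**Figure D1:**
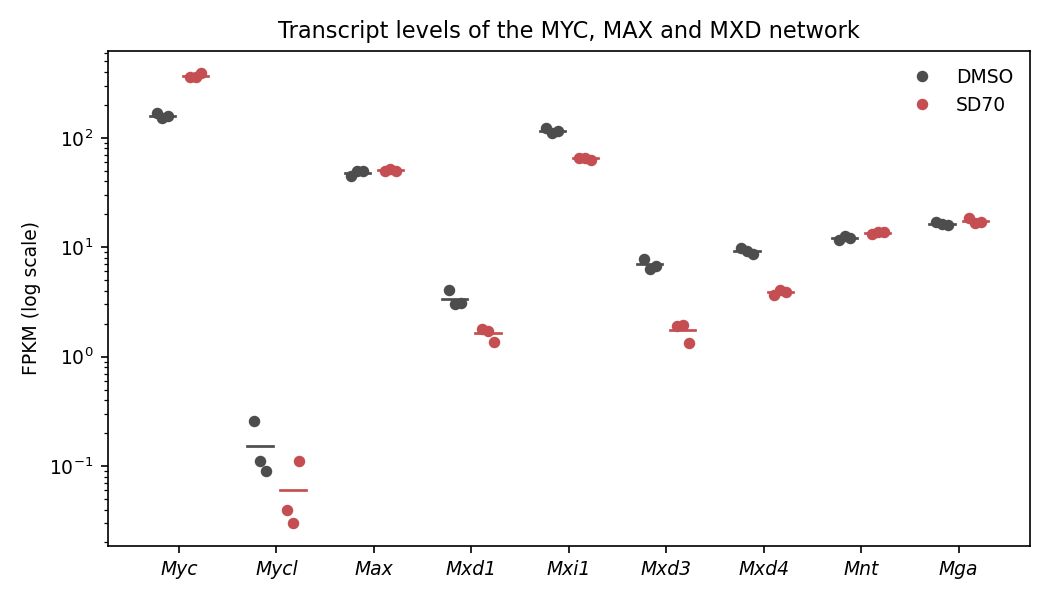
FPKM of the 9 listed members (y axis, log scale) in the 3 DMSO samples (grey) and the 3 SD70 samples (red), with 1 point per sample and a line at each group mean. Myc lies higher and Mxd1, Mxi1, Mxd3 and Mxd4 lie lower in every SD70 sample than in any DMSO sample, while Max, Mnt and Mga lie close together in both groups.

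Myc (NCBI Gene 17869; chromosome 15, 61985341 to 61990361 on the plus strand of GRCm38.p6) encodes the activator of the network. Its level was 168, 152 and 159 FPKM in DMSO samples 1, 2 and 3, against 357, 361 and 389 FPKM in SD70 samples 1, 2 and 3. All 3 SD70 samples lay far above the highest DMSO sample. In normalized counts, Myc stood at 5823 ± 295.7 with DMSO (SD, n = 3) and at 13749 ± 627 with SD70 (SD, n = 3). Its change on the log2 scale was 1.24 (SE 0.0512, 95% confidence interval 1.14 to 1.34, edgeR adjusted p = 1.06e-20). By mean FPKM, Myc was the 444th highest of the 16081 listed genes with DMSO and the 188th highest with SD70. Its rise was the 232nd largest on the log2 scale among the 11552 genes tested.

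Mycl (NCBI Gene 16918; chromosome 4, 122995588 to 123002490, plus strand), the third family member, first found amplified in lung cancer, was close to absent. It had 14, 6 and 5 counts in DMSO samples 1, 2 and 3, against 2, 2 and 5 counts in SD70 samples 1, 2 and 3. The groups overlapped. When every gene with at least 1 count was kept in the fit, its log2 fold change was -1.35 (SE 0.601, edgeR adjusted p = 0.0561), which did not pass.

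Max (NCBI Gene 17187; chromosome 12, 76937269 to 76962323, minus strand) encodes the obligate partner. Its level was 44.6, 49.3 and 49.3 FPKM with DMSO, against 50.1, 51.5 and 49.9 FPKM with SD70. The groups did not overlap, but the gap between them was small, with 1454 normalized counts in the highest DMSO sample and 1479 in the lowest SD70 sample. Group means were 1380 ± 99.3 and 1504 ± 30.02 normalized counts (SD, n = 3 each). This gave a log2 fold change of 0.12 (SE 0.0572, 95% confidence interval 0.01 to 0.24, edgeR adjusted p = 0.0585).

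The MXD genes encode the repressors that take MAX to the same E-boxes as MYC, and all 4 fell. Mxi1 (NCBI Gene 17859; chromosome 19, 53310128 to 53373293, plus strand), also called Mxd2 and classed as a MYC antagonist and candidate tumour suppressor, was by far the most abundant of them. Its level was 122, 111 and 115 FPKM with DMSO, against 66.0, 66.0 and 63.1 FPKM with SD70. No SD70 sample came near the DMSO range. Normalized counts averaged 4272 ± 207 under DMSO and 2436 ± 83.3 after SD70 (SD, n = 3 each). On the log2 scale the change was -0.81 (SE 0.0514, 95% confidence interval -0.91 to -0.71, edgeR adjusted p = 1.44e-15). Mxi1 moved from the 660th to the 1348th highest mean FPKM of the listed genes. In the GENCODE M21 annotation, 194 of its 6823 exon bases are shared with Gm10197 on the opposite strand.

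Mxd3 (NCBI Gene 17121; chromosome 13, 55325170 to 55329900, minus strand), which unlike its relatives is known to be expressed in proliferating cells during S phase, had the largest change of the members. Its level was 7.83, 6.33 and 6.76 FPKM with DMSO, against 1.92, 1.95 and 1.34 FPKM with SD70. The groups were well apart, the counts falling from 120 to 148 per DMSO sample to 23 to 37 per SD70 sample. The log2 fold change was -1.97 (SE 0.169, 95% confidence interval -2.31 to -1.62, edgeR adjusted p = 3.50e-12), a 3.9-fold fall and the 19th largest among the 11552 genes tested. In the same annotation, 105 of the 2369 exon bases of Mxd3 are shared with Prelid1 on the opposite strand, and the sources used here do not say whether counting used strand. Prelid1, named here for this overlap after its values were seen, had 5387 to 5586 counts per DMSO sample and 4108 to 4913 per SD70 sample.

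Mxd4 (NCBI Gene 17122; chromosome 5, 34176580 to 34187710, minus strand) is 1 of the 3 members with a promoter E-box. Its level was 9.75, 9.28 and 8.59 FPKM with DMSO, against 3.68, 4.06 and 3.89 FPKM with SD70. Within each group the samples were close, and the groups were separate. Its change on the log2 scale was -1.22 (SE 0.134, 95% confidence interval -1.49 to -0.95, edgeR adjusted p = 1.16e-09), a 2.33-fold fall. An annotated antisense gene, Gm42846, shares 514 of the 8483 exon bases of Mxd4, and reads from it cannot be told apart without strand.

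Mxd1 (NCBI Gene 17119; chromosome 6, 86647044 to 86669234, minus strand), the founding MXD gene, which is induced during differentiation, was the lowest of the 4 with DMSO. Its level was 4.04, 3.01 and 3.12 FPKM with DMSO, against 1.78, 1.73 and 1.37 FPKM with SD70. DMSO sample 1 was higher than the other two, and SD70 sample 3 was lower than the other two of its group. This gave a log2 fold change of -1.02 (SE 0.123, 95% confidence interval -1.27 to -0.77, edgeR adjusted p = 2.03e-08), a 2.02-fold fall at the edge of the 2-fold threshold. It came to -0.87 without DMSO replicate 1 and to -0.92 without SD70 replicate 3, both under 2-fold, with the fall itself past the test in each.

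Mnt (NCBI Gene 17428; chromosome 11, 74830806 to 74845725, plus strand) encodes a repressor that is present in proliferating and resting cells alike and limits MYC. It did not follow the MXD genes. Its level was 11.7, 12.7 and 12.2 FPKM with DMSO, against 13.1, 13.8 and 13.8 FPKM with SD70. The groups did not overlap, and the shift was small. Normalized counts averaged 886 ± 34.04 under DMSO and 1011 ± 29.8 after SD70 (SD, n = 3 each). On the log2 scale the change was 0.19 (SE 0.0592, 95% confidence interval 0.07 to 0.31, edgeR adjusted p = 0.00634). The rise was positive in 14 of 14 alternative fits and lost its call in 9 of them, with adjusted p-values from 0.00433 to 0.0427 over all 14. Leaving out any single sample other than SD70 replicate 1 ended the call, at adjusted p-values from 0.013 to 0.0364 by edgeR.

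Mga (NCBI Gene 29808; chromosome 2, 119872503 to 119970129, plus strand) encodes a very large protein with both a T-box and a MYC-like domain, which pairs with MAX inside the repressive complex PRC1.6. Its level was 17.1, 16.3 and 15.8 FPKM with DMSO, against 18.6, 16.7 and 16.9 FPKM with SD70. The groups overlapped on this scale and in normalized counts. The log2 fold change was 0.09 (SE 0.0533, 95% confidence interval -0.01 to 0.20, edgeR adjusted p = 0.124), which did not pass. The deposited counts of Mga were not whole numbers in 5 of the 6 samples, the only member for which this was so, and were rounded before the test.

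**Figure D2:**
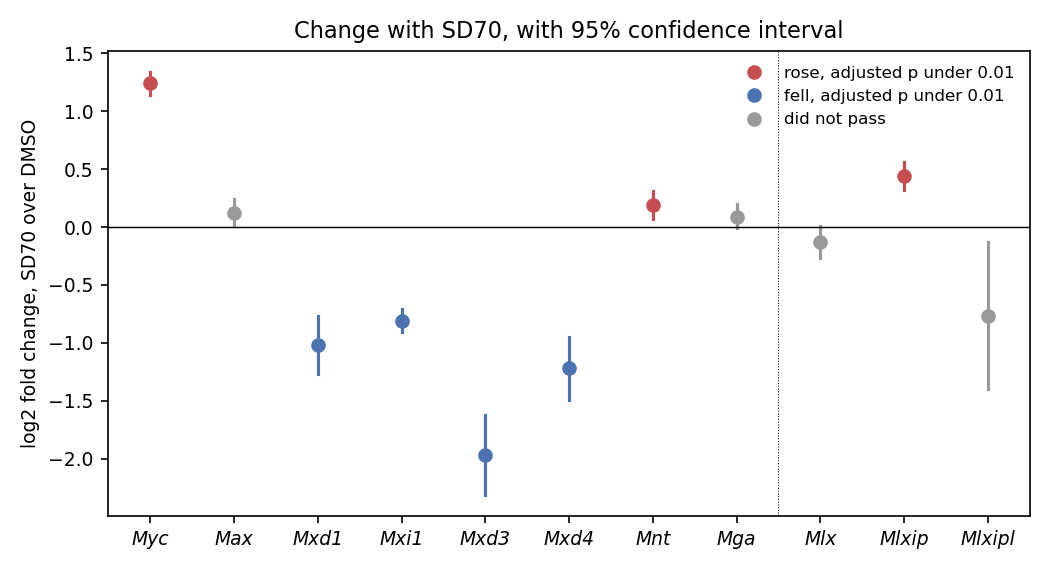
Log2 fold change of SD70 over DMSO (y axis) with its 95% confidence interval for the 8 tested members and, right of the dotted line, the 3 genes of the MLX branch, coloured by the call at an adjusted p-value under 0.01 from edgeR. Myc stands at 1.24, the 4 MXD genes lie between -1.97 and -0.81, and the values of Max, Mnt and Mga lie between 0.09 and 0.19.

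The order of the members by FPKM, described after the data had been seen, was the same by group mean with DMSO and with SD70. With DMSO it ran Myc (mean 159.7 FPKM), Mxi1 (116), Max (47.7), Mga (16.4), Mnt (12.2), Mxd4 (9.21), Mxd3 (6.97), Mxd1 (3.39) and Mycl (0.153), and no neighbours in this order had overlapping ranges over the 3 samples. With SD70, Myc stood at 369 FPKM, Mxi1 at 65.1, Max at 50.5, Mga at 17.4, Mnt at 13.6 and Mxd4 at 3.88. Mxd3 (1.74) and Mxd1 (1.63) then had overlapping ranges and could not be ordered. Myc and Mxi1, the most abundant activator and repressor, thus stood closer together with DMSO than with SD70.

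Each member was also set against Max within the same sample, since the partners share it. The ratio of Myc to Max in FPKM was 3.77, 3.09 and 3.22 with DMSO, against 7.11, 7.02 and 7.80 with SD70. The ratio of Mxi1 to Max was 2.74, 2.26 and 2.34 with DMSO, and 1.32, 1.28 and 1.27 with SD70. Both moved without overlap and in opposite directions. On the log2 scale, the SD70 minus DMSO difference of the ratio to Max was 1.13 for Myc, -0.92 for Mxi1, -1.14 for Mxd1, -1.33 for Mxd4 and -2.10 for Mxd3, and each had an exact two-sided permutation p of 0.1. That is the smallest p which 3 samples against 3 can give, so none of the 7 ratios tested could pass 0.05. For Mnt the difference was 0.07 (exact permutation p = 0.2) and for Mga it was 0.00 (exact permutation p = 1), neither separating the groups.

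Summed over the listed partners of Max, transcripts shifted toward Myc. These shares were computed after the data had been seen, carry no test, and count transcripts per length, not protein. Myc made up 49.3%, 48.9% and 49.5% of the summed FPKM in DMSO samples 1, 2 and 3, against 77.2%, 77.6% and 79.5% in the SD70 samples. The 4 MXD genes together made up 42.2%, 41.8% and 41.7% with DMSO, and 15.9%, 15.8% and 14.2% with SD70. Within a group the shares varied far less than they shifted between groups. Myc exceeded the sum of the 4 MXD genes 1.17 to 1.19 times in the DMSO samples and 4.86 to 5.58 times in the SD70 samples. Most MXD transcript was Mxi1, with 85% to 86.2% of the FPKM of the 4 genes with DMSO and 89.5% to 90.5% with SD70. Mnt and Mga held small shares, Mnt 3.44% to 4.07% with DMSO and 2.82% to 2.96% with SD70, and Mga 4.94% to 5.22% with DMSO and 3.45% to 4.02% with SD70. The summed partners exceeded Max 6.31 to 7.65 times with DMSO and 9.04 to 9.82 times with SD70.

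**Figure D3:**
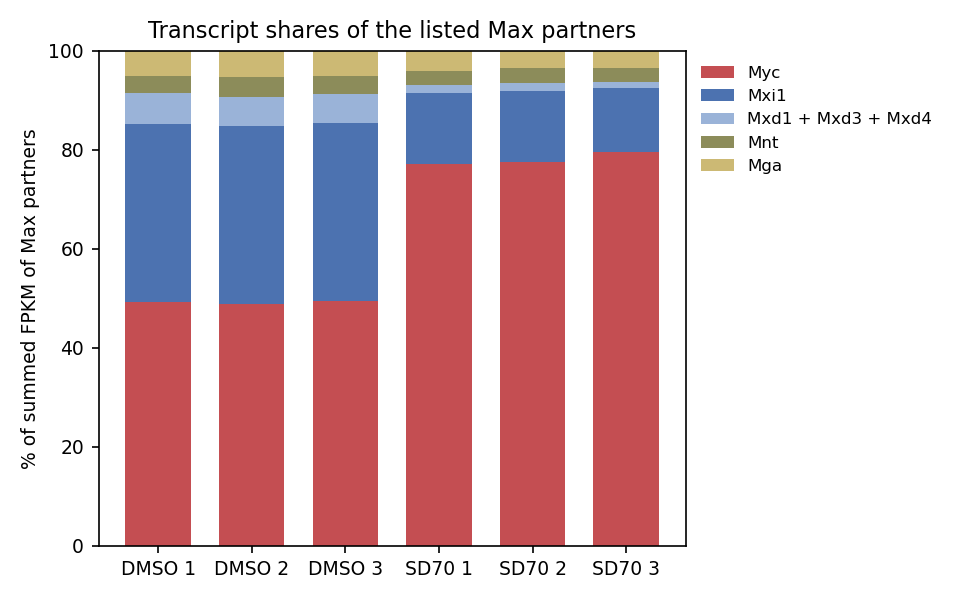
Share of each partner in the summed FPKM of the listed partners of Max (y axis, percent), with 1 bar per sample and Mycl, under 0.1% in each sample, not drawn. Myc takes 48.9% to 49.5% of each DMSO bar and 77.2% to 79.5% of each SD70 bar, and Mxi1 shrinks from 35.8% to 35.9% to between 12.9% and 14.3%.

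The genes around the network were read from lists chosen by function, with earlier results of these data known, and are given as counts beside the shares over all genes tested (25.8% rose, 24.2% fell). In the parallel branch, Mlxip rose, from 1341 ± 93.1 to 1819 ± 109.9 normalized counts (mean ± SD over 3 samples per group), or 0.44 on the log2 scale (SE 0.0587, edgeR adjusted p = 7.26e-08). Mlx differed by -0.13 (adjusted p = 0.107 by edgeR), which did not pass. Mlxipl, named here after its values were seen, had only 16 to 24 counts per DMSO sample and 10 to 13 per SD70 sample, and its log2 fold change of -0.77 had an adjusted p of 0.0347 in edgeR. Txnip and Arrdc4, arrestin-family genes that MLXIP and MLX are known to activate and that restrain glucose uptake, both rose. Their log2 fold changes were 1.3 for Txnip (SE 0.0666, edgeR adjusted p = 1.10e-13) and 1.57 for Arrdc4 (SE 0.141, edgeR adjusted p = 1.14e-11). Arrdc4 had few counts, and its value was 0.79 in limma on log2(FPKM + 1), still past the test.

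Of 15 cofactors of MYC tested, 6 rose, 1 fell and 8 did not pass, so that 7 of 15 changed beside 49.9% of all genes. None reached 2-fold, and the median log2 fold change was 0.15. Crebbp, the CBP acetyltransferase (0.30), Smarcb1, a SWI/SNF subunit (0.30), and Wdr5, which helps MYC onto chromatin (0.29), had the largest values and rose. The call for Crebbp was lost in 4 of 14 alternatives, the adjusted p reaching 0.105, and without DMSO replicate 3 or SD70 replicate 2 it stood at 0.0232 and 0.0188 by edgeR. Trrap, the scaffold that carries the acetyltransferases, was the member that fell (-0.23), and is named for that reason after its value was seen.

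Among 16 tested genes that govern the stability of the MYC protein, 6 rose, 3 fell and 7 did not pass, with a median of 0.04. Usp36, a nucleolar deubiquitinase that stabilises MYC, rose from 850 ± 16.0 to 2643 ± 260.5 normalized counts (mean ± SD over 3 samples per group), or 1.64 on the log2 scale (SE 0.062, edgeR adjusted p = 3.26e-21). Gsk3b, the kinase that marks MYC for degradation, also rose (0.57), and Plk1, a mitotic kinase that opposes that degradation, fell (-1.0). Fbxw7, the ubiquitin ligase subunit that reads the mark, had a log2 fold change of 0.05 (adjusted p = 0.626 by edgeR), and is named after its value was seen. These members act on MYC in different directions and did not move one way as a group. Of 9 tested regulators of Myc transcription, 3 rose and 2 fell, with a median of 0.14. The largest values were those of Tcf7l1, a repressor of the WNT pathway (-0.54), Stat3, the cytokine-activated factor (-0.40), and Ctcf, the insulator protein (0.37), all past the test.

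The SIN3 and histone deacetylase genes, through which MXD proteins and MNT repress, fell more often than they rose. Of 14 tested, 7 fell and 3 rose, with a median of -0.17 and no change of 2-fold. Sap30, a subunit that joins SIN3 to its deacetylases, fell from 421 ± 19.7 to 228 ± 19.7 normalized counts (mean ± SD over 3 samples per group), or -0.88 on the log2 scale (SE 0.0857, edgeR adjusted p = 7.69e-11). Arid4a (-0.53) and Suds3 (-0.49), both subunits of the same complex, also fell. Named after their values were seen, Sin3a, the scaffold itself, fell (-0.34), and the 3 genes that rose were Brms1, a further subunit (0.43), the deacetylase Hdac2 (0.22) and the histone-binding Rbbp7 (0.15). The partners of MGA in PRC1.6 stayed mostly below the threshold, with 1 of 11 rising, 1 falling and a median of -0.01. Pcgf6, the subunit that defines this complex, rose (0.46), Tfdp2, a dimer partner of E2F factors, fell (-0.28), and E2f6, its repressive E2F, had a value of -0.13 (adjusted p = 0.169 by edgeR).

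Among genes that MYC is known to activate, those of ribosome biogenesis rose nearly throughout. Of 32 tested, 29 rose (90.6%, beside 25.8% of all genes), none fell, 4 rose by at least 2-fold, and the median log2 fold change was 0.64 with a range from 0.04 to 1.24. Nop58, a core protein of the box C/D particles that methylate ribosomal RNA, rose from 3622 ± 174 to 8561 ± 434 normalized counts (mean ± SD over 3 samples per group), or 1.24 on the log2 scale (SE 0.0521, edgeR adjusted p = 1.67e-20). Wdr43, a factor of the small subunit processome (1.14), and Tcof1, the treacle protein of ribosomal RNA transcription (1.13), rose about as far. The 3 that did not pass, named for that after their values were seen, were Npm1 (0.13, adjusted p = 0.0428), Bop1 (0.10, adjusted p = 0.171) and Ubtf (0.04, adjusted p = 0.503), all by edgeR.

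The metabolic targets of MYC moved both ways. Of 27 tested, 15 rose and 5 fell, 4 rose by at least 2-fold, and the median was 0.26. Slc7a5, which imports leucine and other large amino acids, rose from 4271 ± 234 to 14415 ± 1583 normalized counts (mean ± SD over 3 samples per group), or 1.75 on the log2 scale (SE 0.0672, edgeR adjusted p = 1.92e-14). Slc3a2, which forms the same transporter (1.5), and Shmt2, the mitochondrial serine enzyme of the folate cycle (1.05), rose as well, and all 3 are also known targets of the stress factor ATF4. The genes that fell, named as a set after their values were seen, were the glycolytic Ldha (-0.59), Eno1 (-0.38) and Pkm (-0.30) and the nucleotide synthesis genes Prps2 (-0.25) and Paics (-0.22). Ldha was highly abundant in both groups, at 30277 ± 234 normalized counts under DMSO and 20063 ± 1072 under SD70 (SD, n = 3 each).

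Among the cell cycle targets of MYC the changes were mixed, with 3 of 12 rising, 4 falling and a median of -0.14. Ccnd2, cyclin D2 and a direct MYC target, rose (log2 fold change 1.23, SE 0.0541, edgeR adjusted p = 6.04e-20). Id2, an inhibitor of differentiation factors, fell from 513 ± 28.8 to 161 ± 32.3 normalized counts (SD, n = 3 each; log2 fold change -1.66, SE 0.1, edgeR adjusted p = 5.33e-15). Cul1, a scaffold of ubiquitin ligases, rose by less (0.39). The number of these genes called was 7 in all 6 samples and 3 without DMSO replicate 2. With a replicate block it was 9, as Tert (-0.46, adjusted p = 0.00752 by edgeR) and E2f2 (-0.28, adjusted p = 0.00721) then passed as falling, 6 genes in all, both named for this after their values were seen.

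Of 9 tested genes that MYC is known to repress, 6 fell and 3 rose, with a median of -0.41, and all 9 passed the test. Those with the largest changes were the ones that rose, namely Ddit3 (CHOP, 2.66) and Gadd45a (2.55), both also induced by cell stress, and the growth factor receptor Pdgfrb (1.54). Ddit3 went from 449 ± 25.6 normalized counts under DMSO to 2832 ± 62.9 under SD70 (SD, n = 3 each). The genes that fell, named as a set after their values were seen, were the cell cycle inhibitors Cdkn1a (-1.39), Cdkn2c (-0.71) and Cdkn1b (-0.61), with Ndrg2 (-1.33), Ndrg1 (-0.41) and the integrin Itgb1 (-0.16). Cdkn1a, which encodes p21 and is a textbook case of repression by MYC, stood at 3248 ± 268.5 normalized counts under DMSO and 1238 ± 110.7 under SD70 (SD, n = 3 each).

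**Figure D4:**
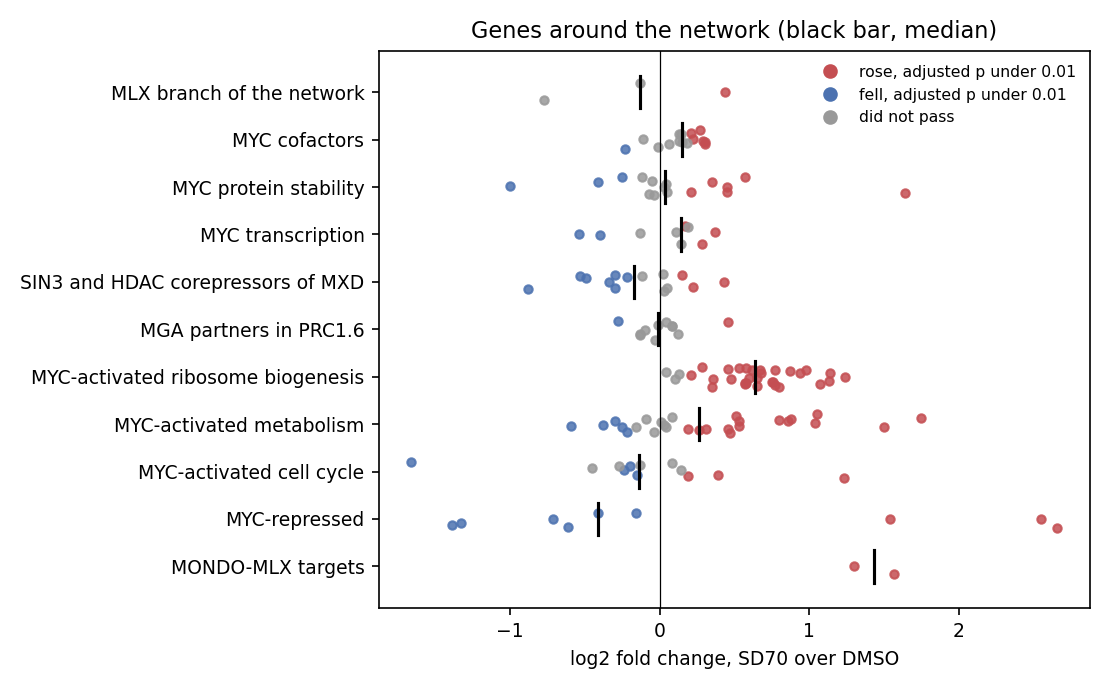
Log2 fold change of SD70 over DMSO (x axis) for each tested gene of the 11 lists around the network, with 1 point per gene, coloured by the call at an adjusted p-value under 0.01 from edgeR, and a black bar at the median of each list. Of the 32 ribosome biogenesis genes 29 rose, with a median of 0.64, while the SIN3 and deacetylase genes centre on -0.17 and the MYC-repressed genes spread from -1.39 to 2.66.

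The promoter E-box was also counted across the genes tested, after the data had been seen and with no test. Of the 11552 genes tested, 9284 (80.4%) had a promoter window, and 1104 of these (11.9%) held CACGTG. Of those 1104 genes, 33.9% rose and 19.3% fell, with a median log2 fold change of 0.06. Of the 8180 genes without the word, 24.7% rose and 25.1% fell, with a median of -0.01. Both groups of genes also differed in promoter base composition (median 61.7% against 60.7% G and C) and in level (median 740 against 610 normalized counts), and the part of these in the difference was not tested. Among the lists of MYC targets, the word stood in 7 of 26 ribosome biogenesis genes with a window (26.9%), 7 of 24 metabolic genes (29.2%), 2 of 9 cell cycle genes (22.2%) and 1 of 7 MYC-repressed genes (14.3%). It stood in 1 of 14 cofactors (7.14%), 2 of 14 stability genes (14.3%), 1 of 9 regulators of Myc (11.1%), 1 of 10 SIN3 and deacetylase genes (10%) and 1 of 9 partners of MGA (11.1%), most of these shares close to that of all tested genes. In the MLX branch it stood in 2 of 3 genes and among the targets of MLXIP and MLX in 1 of 2. In the network itself, the members that carry it moved differently, Mxd4 falling (-1.22), Mnt rising slightly (0.19, a call lost in 9 of 14 alternatives) and Max not passing (0.12).

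The genes whose pattern over the 6 samples was closest to that of Myc, by the root mean square difference of centred log2 CPM, were Fetub, Junb and Rhob, among 9622 candidates at or above a mean of 100 normalized counts. Their differences were 0.0425, 0.0442 and 0.0480, beside a median of 0.624 over all candidates. Their log2 fold changes of 1.25, 1.22 and 1.23 were close to the 1.24 of Myc. Junb encodes a subunit of the AP-1 factor, Rhob a small GTPase, and Fetub a secreted protease inhibitor. The pattern of Mxd3 was closest to those of Apln (0.0842), Adm (0.0919) and Fgf11 (0.119), beside a median of 0.989, with log2 fold changes of -1.97, -1.76 and -2.05. Apln and Adm encode the secreted peptides apelin and adrenomedullin, and Fgf11 a non-secreted member of the FGF family. Since likeness was measured over the same 6 samples, it holds mainly that these genes changed by a like amount between the groups.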

How the data were processed

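RNA-seq was measured in 6 samples, grouped by their labels. The authors aligned BGISEQ-500 reads to GRCm38.p6 with HISAT. The submitters' processing notes also name StringTie 1.3.3b and the build mm8, with no role, and the counter and its use of strand are not given in the sources used here. The deposited values were an expected count per gene, not normalized (8.84% to 9.28% of values per sample were not whole and were rounded), and a second value that behaves as FPKM, a unit the header does not name. Coordinates are from RefSeq on GRCm38.p6, and exon overlaps from GENCODE M21.

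Genes were filtered with filterByExpr, normalized by TMM (factors 0.984 to 1.02) and compared by the quasi-likelihood test of edgeR 4.0.16 in R 4.3.3 (glmQLFit with the robust option, glmQLFTest), with Benjamini-Hochberg adjustment over 11552 genes. Ratios to Max were compared by exact permutation. Precision is limited by 3 samples per group, at totals of 15276744 to 17060424 counts. The tests were checked on simulated data.

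The network members and lists were chosen with earlier results of these data known. Named genes were all members, the 3 largest absolute changes per list among genes averaging 100 or more normalized counts, and the 3 genes closest in pattern to Myc and to Mxd3. Cell type markers are named from their own lists to check the label, those with values being chosen after these were seen. Other names are said to be later choices. Alternatives were DESeq2 size factors, library totals alone, a minimum of 1 count in any sample or 10 in all samples, a block for replicate number, each sample left out, DESeq2 1.42.0, limma 3.58.1 on log2(FPKM + 1) and log2(FPKM + 0.1), an adjusted p under 0.05, and, for ratios, normalized counts.

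Both groups carry the replicate numbers 1 to 3 in their labels, which do not say that equal numbers were handled together. Deviations from the group means correlated at 0.176, 0.254 and 0.157 between samples with the same number, and at -0.186 to 0.0113 between the others, over 9623 genes.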

Additional observations from a re-analysis of the deposited data

How the results depend on the processing

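Of 874 recomputed values of 65 results, 854 kept their direction and their side of the threshold, or lay within 1.5 times the count. The log2 fold change stayed between 1.19 and 1.28 for Myc, -0.85 and -0.77 for Mxi1, -2.05 and -1.55 for Mxd3, -1.27 and -1.06 for Mxd4, -1.11 and -0.74 for Mxd1, 0.07 and 0.16 for Max, and 0.03 and 0.14 for Mga over 14 alternatives. The changed members numbered 5 or 6 and those changed at least 2-fold 3 or 4. With the replicate block, edgeR gave 1.24 for Myc and -1.97 for Mxd3, and 2 of 170 list genes gained a call, Tert (adjusted p = 0.00752) and E2f2 (0.00721), both of the cell cycle list and both chosen for this after their values were seen. The block changed no other call of the lists or members.

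At an adjusted p under 0.05, called genes numbered 2 in the MLX branch instead of 1 and 11 among the cofactors instead of 7, as a looser threshold admits more genes. Leaving out 1 sample gave 3 to 7 called cell cycle genes. The ratio of Mga to Max turned to -0.04 with normalized counts and ranged from -0.05 to 0.08 when 1 sample was left out, around a main value of 0.00; the cause was not tested. Over all genes, 681 changed at least 2-fold by edgeR, 283 by limma on log2(FPKM + 1) and 565 by limma on log2(FPKM + 0.1). With library totals alone the median log2 fold change of all genes was -0.04. Genes with few counts, such as Mycl, are limited by depth, and Mxd3 rests on 23 to 37 counts per SD70 sample.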
